A study of Mus musculus with 6 samples.

Results

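The transcripts described here are those of 3 receptors for sphingosine-1-phosphate (S1pr1, S1pr4 and S1pr5), of the transcription factor Klf2 and of the lymphocyte surface antigen Cd69. They were found by symbol on an Illumina mouse BeadChip, where S1pr1, S1pr4 and S1pr5 carry their older names Edg1, Edg6 and Edg8. The set has 5 genes of 31484 with a symbol on the array, and 7 probes of 46643, of which 3 are for Cd69. The cells were CD45+ CD3- Nkp46+ NK11+ lymphocytes sorted from the intestine, the skin or the spleen, with 2 arrays per tissue and 6 in all. All animals were male RAG-2-KO mice of the C57BL/6 strain at 12 weeks of age, so every group lacked the recombinase that lymphocytes need to build antigen receptors, and with it mature T and B cells. The labels give neither the number of mice behind an array nor whether the 2 arrays of a tissue came from separate mice, so p-values measure the spread between these arrays only, which may be technical. Since RNA of many cells was measured together, fewer cells of a type and less RNA per cell cannot be told apart.

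Sphingosine-1-phosphate is a lipid that is abundant in blood and lymph and scarce within tissues, and lymphocytes leave tissues along this gradient through receptors coupled to G proteins. S1PR1 is the main exit receptor of T and B cells, S1PR5 serves natural killer (NK) cells in leaving bone marrow and lymph nodes, and S1PR4 is a receptor of blood cells whose part in trafficking is less clear. KLF2 is a zinc finger factor that keeps S1pr1 transcribed in resting T cells. CD69 is a C-type lectin induced on activation that binds S1PR1 in the membrane and takes it off the cell surface, and it is a common marker of lymphocytes that stay in a tissue.

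Of the 5 genes, 3 have a promoter window in the RefSeq table used (assembly GRCm38.p6), and the 250 bases before each start are shown because their genes were all lower in intestinal than in splenic cells. Each is read 5′ to 3′ on the gene's strand. Capitals mark matches to CACCC, the core of the box bound by KLF factors (GGGTG where it lies on the opposite strand), and to CACCTG, an E-box bound by ZEB factors, which shares its first 4 letters with CACCC.
S1pr5, chr9:21248444-21248693, minus strand: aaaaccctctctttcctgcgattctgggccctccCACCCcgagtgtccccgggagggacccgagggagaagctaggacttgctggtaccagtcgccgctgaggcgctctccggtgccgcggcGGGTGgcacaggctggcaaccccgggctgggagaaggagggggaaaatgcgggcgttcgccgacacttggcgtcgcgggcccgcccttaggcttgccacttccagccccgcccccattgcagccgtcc
S1pr4, chr10:81500138-81500387, minus strand: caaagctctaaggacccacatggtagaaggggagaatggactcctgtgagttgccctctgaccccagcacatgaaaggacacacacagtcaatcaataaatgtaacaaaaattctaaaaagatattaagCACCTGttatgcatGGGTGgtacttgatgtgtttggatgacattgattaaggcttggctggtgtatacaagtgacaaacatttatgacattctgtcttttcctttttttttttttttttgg
Klf2, chr8:72318812-72319061, plus strand: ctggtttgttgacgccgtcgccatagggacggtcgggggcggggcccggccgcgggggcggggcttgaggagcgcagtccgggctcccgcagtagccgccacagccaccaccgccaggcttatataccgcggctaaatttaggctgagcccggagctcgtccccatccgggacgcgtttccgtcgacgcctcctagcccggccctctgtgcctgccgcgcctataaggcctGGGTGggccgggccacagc
The S1pr5 window had 2 matches to CACCC, 1 on each strand, and the S1pr4 and Klf2 windows had 1 each, on the opposite strand. CACCC lay in 52% of all 32851 windows of the same length, searched on both strands. CACCTG lay once in the S1pr4 window and in neither of the others, against 17.2% of all windows. Neither TCACACC, a binding sequence of T-box factors (3.33% of all windows), nor TGANTCA, the site of AP-1 factors (6.75%), was found in the 3 windows. The windows of S1pr5 and Klf2 were rich in G and C (69.2% and 71.2%) and that of S1pr4 was not (38.8%), with a median of 52.4% over all windows. S1pr1 and Cd69 are named only.

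The level of each probe is its deposited signal, an average bead intensity with the background subtracted, on arrays that each have a mean of 83.1. A probe counts as detected on an array where its detection p was under 0.01, which held for 32.6% to 39.7% of the probes. The arrays of a tissue correlated at 0.986 (intestine), 0.991 (skin) and 0.995 (spleen) across the 13455 genes tested, on the normalized log2 values described next. Differences are log2 differences of quantile normalized log2(signal + 16) with the standard error (SE) of a limma fit over 13455 genes detected on both arrays of at least 1 tissue, and a gene counts as changed where its Benjamini-Hochberg adjusted p was under 0.05. The offset makes folds of dim genes smaller than the ratio of their signals. Among the sort markers, Ncr1, which encodes NKp46, had signals of 10.8 and 14.7 in intestinal cells, 33.1 and 32.4 in skin cells and 88.2 and 52.9 in splenic cells, and Cd3e was detected on none of the 6 arrays. Klrb1c, which encodes NK1.1, was lower in intestinal than in splenic cells (-1.03 ± 0.14, limma adjusted p 0.000281). Ptprc, which encodes CD45, was lower than in splenic cells in intestinal (-0.71 ± 0.15, limma adjusted p 0.00367) and skin cells (-0.86 ± 0.15, limma adjusted p 0.00553). Its other probes gave -0.14 and -0.60 for intestinal and 0.17 and -0.02 for skin cells. The array's probe for Rag2 may lie outside the deleted part and checks nothing.

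S1pr5 had the lowest difference of all 13455 genes between intestinal and splenic cells. Its signals were 8.22 and 12.6 in intestinal cells, 255 and 203 in skin cells, and 1052 and 1098.5 in splenic cells. The tissues fell in the order intestine, skin, spleen with no overlap, and each neighbour in that order differed from the next. The means were 10.4 ± 3.08 in intestinal cells, 229 ± 36.9 in skin cells and 1075 ± 33.0 in splenic cells (SD, n = 2 each). Between intestinal and splenic cells the log2 difference was -5.24 ± 0.15 (SE), or 37.7-fold lower, with a limma adjusted p of 9.39e-08. In skin cells the transcript was 4.14-fold lower than in splenic cells (-2.05 ± 0.15, limma adjusted p 0.000136), the 11th lowest value of that comparison. Intestinal cells were in turn 9.10-fold below skin cells (-3.19 ± 0.15, limma adjusted p 5e-07), the 5th lowest value. The probe was detected on all 6 arrays, but the intestinal signals lay close to the lowest signal called detected on those arrays, 5.65 and 8.87. There the offset sets the size of the fold: splenic over intestinal mean signals gave a ratio of 103, and the log2 difference was -6.06 with an offset of 4 and -3.84 with an offset of 64. Within the slides, the difference between intestinal and splenic cells was -5.27 on the slide of the first replicates and -5.20 on that of the second.

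S1pr4, the other blood cell receptor, was lower in intestinal cells than in both other tissues. Its signals were 20.5 and 31.8 in intestinal cells, 78.4 and 92.4 in skin cells, and 137 and 138 in splenic cells. The order was the same as for S1pr5, without overlap, and the smallest gap was that between skin and spleen. Intestinal cells were 2.77-fold below splenic cells (-1.47 ± 0.16, limma adjusted p 5.87e-05) and 2.19-fold below skin cells (-1.13 ± 0.16, limma adjusted p 0.000375). The size depends on the processing: splenic over intestinal mean signals gave a ratio of 5.25. Over the alternatives the log2 difference between those tissues ran from -1.88 to -0.91. The difference of -0.34 ± 0.16 between skin and splenic cells did not pass the test (limma adjusted p 0.139). That difference is the one call among the 5 genes that turned on the scaling, being -0.60 with a limma adjusted p of 0.0157 on the deposited scaling alone.

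S1pr1 was not detected on any array. Its signals were -3.36 and -0.185 in intestinal cells, -0.120 and -4.13 in skin cells, and 0.468 and 0.396 in splenic cells, all scattered about the background, with detection p between 0.348 and 0.958. No difference between tissues was detectable on this probe, and it entered no test. The remaining receptors of the family are no members of the set but show what the array recorded of it. S1pr2, an inhibitor of migration in B cells, had signals of 176 and 181 in intestinal cells, 216 and 213 in skin cells, and 306 and 282 in splenic cells. The arrays of S1pr2 did not overlap, yet neither the difference between intestinal and splenic cells (-0.30 ± 0.13, limma adjusted p 0.0832) nor that between skin and splenic cells (-0.20 ± 0.13, limma adjusted p 0.264) passed the test; on the deposited scaling alone both did, with limma adjusted p of 0.0012 and 0.0302. S1pr3, a receptor of blood vessels and heart, stayed between 5.44 and 16.3 on the 6 arrays, and its tissues overlapped. Of the 4 receptors tested, S1pr5 and S1pr4 were thus lower in intestinal than in splenic cells, S1pr2 and S1pr3 did not pass.

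**Figure D1:**
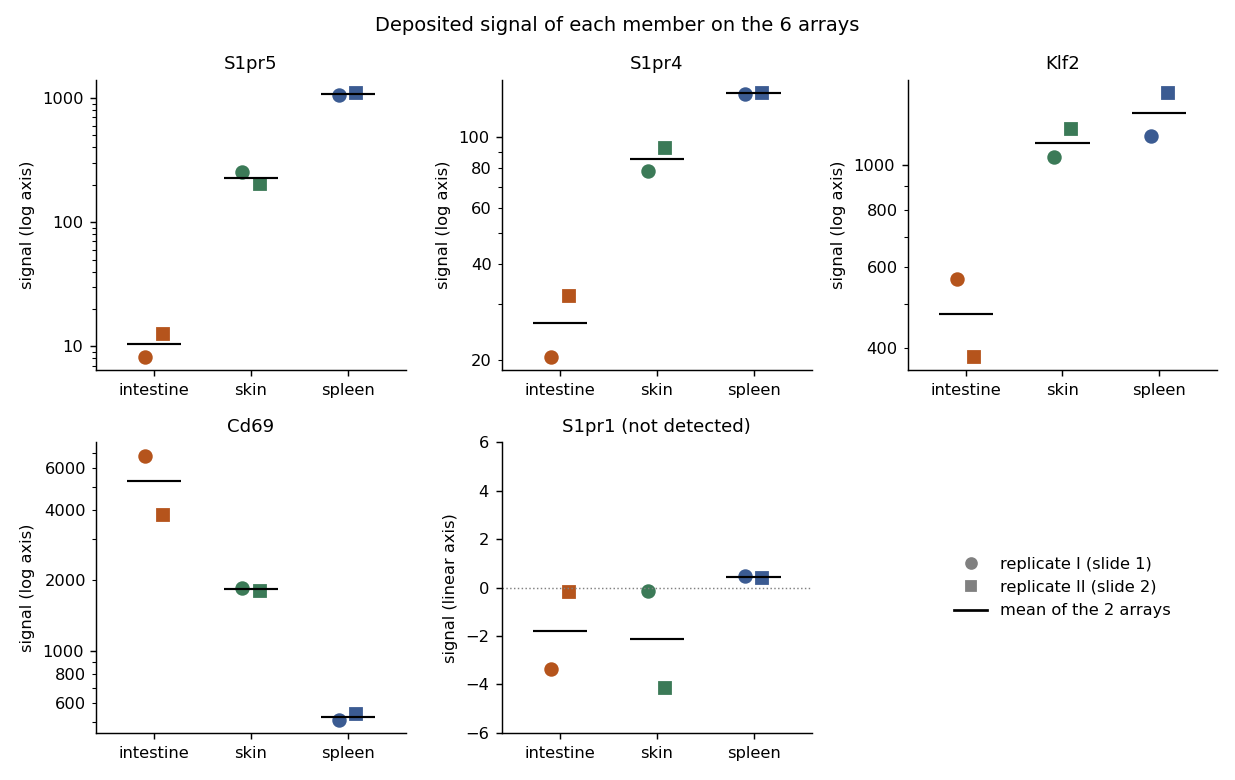
Deposited signal (log axes, linear for S1pr1) of each gene on every array, with intestine on the left, then skin and spleen; circles are first and squares second replicates, and lines are means of 2 arrays. S1pr5 lies between 8.22 and 12.6 in intestinal cells, against 1052 and 1098.5 in splenic cells, Cd69 runs the other way, and S1pr1 scatters about 0.

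Klf2 was lower in intestinal cells than in both other tissues, and its difference between skin and spleen did not pass the test. Its signals were 565 and 383 in intestinal cells, 1041 and 1198 in skin cells, and 1157 and 1437 in splenic cells. Both intestinal arrays lay below all others, while the ranges of skin and spleen overlapped. Intestinal cells were 2.48-fold below splenic cells (-1.31 ± 0.18, limma adjusted p 0.00029) and 2.22-fold below skin cells (-1.15 ± 0.18, limma adjusted p 0.000786). The difference between intestine and spleen was -0.91 on the first slide and -1.71 on the second. For skin against spleen it was -0.16 ± 0.18 (limma adjusted p 0.553), with a sign that turned with the scaling and with 1 array: it was 0.022 with median scaling and 0.026 without the second spleen array.

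Cd69 was higher in intestinal and in skin cells than in splenic cells. On its brightest probe the signals were 6791 and 3794 in intestinal cells, 1866 and 1803 in skin cells, and 511 and 539 in splenic cells. The tissues were ordered intestine, skin, spleen from high to low, with no overlap, the reverse of S1pr5. Intestinal cells were 9.46-fold above splenic cells (3.24 ± 0.20, limma adjusted p 1.98e-06), the 59th highest value of 13455 genes. Skin cells were 3.80-fold above splenic cells (1.93 ± 0.20, limma adjusted p 0.000572), the 11th highest value. Intestinal cells were 2.49-fold above skin cells (1.32 ± 0.20, limma adjusted p 0.000684), the 506th highest value. The first intestinal array was brighter than the second, and the difference from spleen was 3.64 on the first slide and 2.84 on the second.

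The 3 Cd69 probes gave the same direction between intestinal and splenic cells and different sizes. The second probe read 1331 and 366 in intestinal cells, 200.02 and 153 in skin cells, and 89.1 and 75.4 in splenic cells. Its tissues kept the order of the brightest probe. Fitted over all 18583 kept probes, it was 3.16 ± 0.40 higher on the log2 scale in intestinal than in splenic cells (limma adjusted p 0.000173) and 1.93 ± 0.40 higher than in skin cells (limma adjusted p 0.004), while its difference of 1.22 ± 0.40 between skin and splenic cells narrowly missed the threshold (limma adjusted p 0.0522). The third probe was designed on a cDNA clone and read 140 and 128 in intestinal cells, 63.4 and 58.2 in skin cells, and 49.6 and 78.7 in splenic cells. On it, intestinal cells stood above splenic (1.34 ± 0.18, limma adjusted p 0.000244) and skin cells (1.11 ± 0.18, limma adjusted p 0.000974), and skin cells overlapped with splenic cells (0.23 ± 0.18, limma adjusted p 0.364). The call between skin and splenic cells was thus made on the brightest probe, with the second probe higher in skin cells without overlap, and that between intestinal and splenic cells on all 3.

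**Figure D2:**
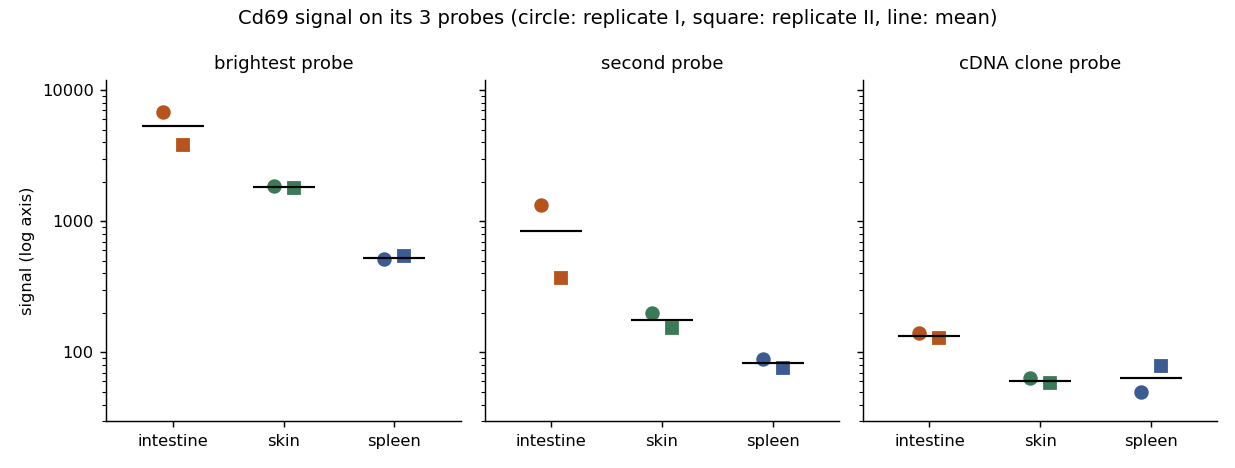
Signal (shared log axis) of the 3 Cd69 probes on each array in intestinal, skin and splenic cells; lines are means of 2 arrays. All 3 probes are brightest on the intestinal arrays, and on the cDNA clone probe the skin arrays (63.4 and 58.2) lie between the 2 splenic ones (49.6 and 78.7).

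Between intestinal and splenic cells 1 of the 4 tested genes was higher (Cd69) and 3 were lower (S1pr5, S1pr4, Klf2), in a comparison in which 49.3% of all genes passed the test, 21.0% higher and 28.3% lower. The arrays of none of the 4 overlapped there, and 77.8% of all genes had no overlap. Between skin and splenic cells Cd69 was higher, S1pr5 was lower and S1pr4 and Klf2 did not pass, where 24.5% of all genes passed, 13.1% higher and 11.4% lower. The arrays of 3 of the 4 did not overlap in that comparison, against 71.7% of all genes without overlap. Between intestinal and skin cells the calls were those of intestine against spleen, 1 higher and 3 lower, where 39.3% passed, 16.4% higher and 22.9% lower. None of the 4 overlapped, and 65.9% of all genes had no overlap. So large a share of genes differed between tissues that a call or a lack of overlap says little by itself, and the ranks given above place the genes: S1pr5 was among the 11 lowest in all 3 comparisons, Cd69 among the 59 highest in both comparisons with spleen, and S1pr4 and Klf2 were the 303rd and 451st lowest between intestinal and splenic cells. The ranks moved with the processing. Over the alternatives S1pr5 ranked 1st or 2nd lowest between intestinal and splenic cells, 4th to 70th between skin and splenic cells and 4th to 23rd between intestinal and skin cells. Cd69 ranked 18th to 113th, 5th to 30th and 252nd to 841st highest in those comparisons. All ranks of Cd69 are those of its brightest probe. Its other 2 probes gave smaller differences, 3.16 and 1.34 between intestinal and splenic cells and 1.22 and 0.23 between skin and splenic cells. Between intestinal and splenic cells S1pr4 ranked 219th to 586th and Klf2 180th to 1214th lowest. The share of calls that were higher also moved with the scaling, being 42.5% between intestinal and splenic cells, 58.5% with median scaling and 25.7% on the deposited scaling alone. It was 53.4%, 71.2% and 36.1% between skin and splenic cells, and 41.8%, 43.7% and 30.4% between intestinal and skin cells. The median of all genes was -0.04, 0.11 and -0.25 between intestinal and splenic cells under those scalings, so the smaller differences of Klf2 and S1pr4 are relative to a median that moves by that much.

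**Figure D3:**
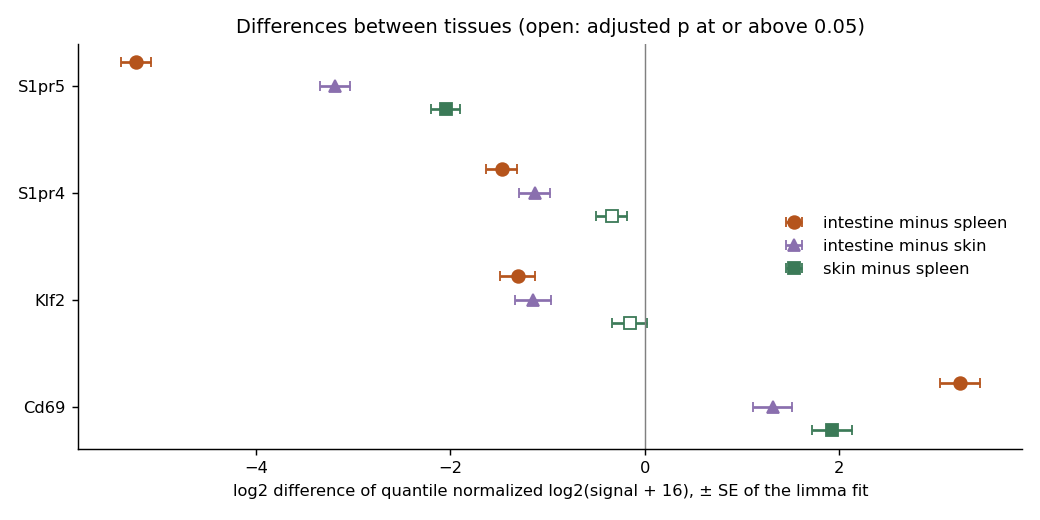
Log2 difference of quantile normalized log2(signal + 16) for each tested gene (horizontal axis; bars are SE of the limma fit over 6 arrays) in the 3 comparisons; open symbols did not pass the test. S1pr5 runs from -5.24 between intestinal and splenic cells to -2.05 between skin and splenic cells, and only S1pr4 and Klf2 between skin and spleen are open.

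**Figure D4:**
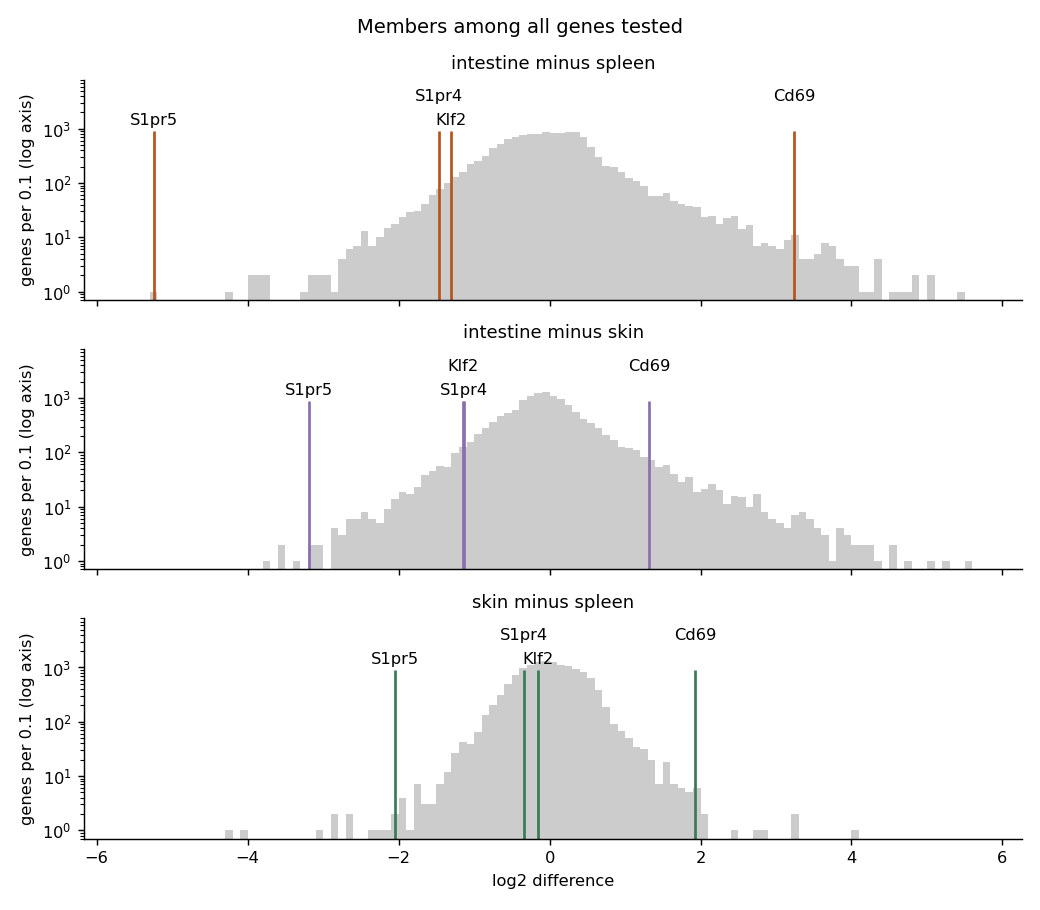
Histograms of the log2 differences of all 13455 genes tested (grey, log count axis) with the tested members as lines. S1pr5 lies at the low end between intestinal and splenic cells, and Cd69 (3.24) lies in the upper tail at the 59th highest place.

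The list of 14 tested genes known to act on Klf2 or S1pr5 or their partners did not move one way. Between intestinal and splenic cells 4 of them were higher, 4 lower and 6 did not pass, with a median of -0.06, close to the -0.04 of all genes. There 21.0% of all genes were higher and 28.3% lower. The shares were 13.1% and 11.4% between skin and splenic cells, and 16.4% and 22.9% between intestinal and skin cells. All list counts below are to be read beside these shares. The lists were chosen with earlier results of these data known, so their counts are descriptions and no test of a list. Zeb2, a repressor that mature NK cells need and that acts with T-bet, had signals of 42.8 and 50.3 in intestinal cells, 150.2 and 151 in skin cells, and 336 and 389 in splenic cells. It kept the order of S1pr5, being 4.70-fold lower in intestinal than in splenic cells (-2.23 ± 0.14, limma adjusted p 2.06e-06) and 1.96-fold lower in skin than in splenic cells (-0.97 ± 0.14, limma adjusted p 0.00238). Its relative Zeb1 was higher in intestinal than in splenic cells by 0.97 ± 0.13 (limma adjusted p 0.000189). Foxo1, a factor that activates Klf2 in T cells, was higher by 0.96 ± 0.13 (limma adjusted p 0.000284), with signals of 131 and 152 in intestinal cells, against 91.9 and 93.3 in splenic cells. The Foxo1 transcript was thus higher where that of Klf2 was lower, and a link between them was not tested. Mef2c, a factor upstream of Klf2 in endothelium, was 2.73-fold lower (-1.45 ± 0.21, limma adjusted p 0.000314), though its other probes ran from -1.15 to 0.36. Tbx21, which encodes T-bet and is needed for S1pr5 in NK cells, read 653 and 669 in intestinal cells, 555 and 658 in skin cells, and 732 and 890 in splenic cells, and differed by -0.12 ± 0.16 between intestinal and splenic cells (limma adjusted p 0.528). Eomes, the related T-box factor, was 2.13-fold lower (-1.09 ± 0.14, limma adjusted p 0.000193), while its other probes gave -0.01 and -1.22. In skin cells 2 of the 14 were higher and 3 lower than in splenic cells, and none was higher when any 1 of the spleen or skin arrays was left out, while 1 was lower without either spleen array. Set against skin cells, intestinal cells had 6 higher and 5 lower, with 3 higher when the second skin array was left out.

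The KLF family moved both ways. Of 11 tested, 6 were higher and 3 lower (Klf2 itself, Klf3 and Klf12) in intestinal than in splenic cells, with a median of 0.39, where 21.0% of all genes were higher and 28.3% lower, and without the first spleen array 2 were higher. Klf4, a factor of quiescence and of myeloid and epithelial cells, had signals of 294 and 96.4 in intestinal cells, 60.3 and 48.8 in skin cells, and 4.69 and 12.0 in splenic cells. It was 8.50-fold higher in intestinal than in splenic cells (3.09 ± 0.35, limma adjusted p 7.85e-05), with the first intestinal array far above the second. Klf3, a repressor that competes for the same CACCC boxes, was lower like Klf2, with signals of 160.3 and 159.9 in intestinal cells, 406 and 330.2 in skin cells, and 915 and 1006 in splenic cells (-2.20 ± 0.15 between intestinal and splenic cells, limma adjusted p 2.94e-06). Klf9, a target of glucocorticoid receptors, was 3.26-fold higher in intestinal than in splenic cells (1.71 ± 0.22, limma adjusted p 0.000161). In skin cells 3 of the 11 were higher than in splenic cells, Klf4 and Klf6 among them, and 1 was lower (Klf3). That count of higher genes fell to 1 without either spleen array or without the first skin array, and the Klf4 call was lost in each of those 3 fits. Without either intestinal array 2 were lower. Of the family, 3 were higher and 2 lower in intestinal than in skin cells, and without the second skin array 1 was higher.

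Genes for homing and adhesion of recirculating lymphocytes moved both ways. All 12 were tested, and 6 were lower, 2 higher and 4 did not pass between intestinal and splenic cells, with a median of -0.79, where 28.3% of all genes were lower and 21.0% higher. The lower count was 6 whichever array was left out, and 4 were higher with median scaling. Itgb2, the integrin chain of LFA-1 and Mac-1, was 6.75-fold lower in intestinal than in splenic cells (-2.75 ± 0.15, limma adjusted p 7.35e-07). Cx3cr1, the fractalkine receptor of circulating cytotoxic cells, was detected on 1 of the 2 intestinal arrays, with signals of 5.32 and 13.7 in intestinal cells, 103 and 75.1 in skin cells, and 217 and 207 in splenic cells. Its difference between intestinal and splenic cells was -2.91 ± 0.19 (limma adjusted p 2.12e-06), with a size that depends on the offset. Ccr7, the receptor that guides cells to lymph nodes and lymph vessels, went the other way. It read 236 and 235 in intestinal cells, 10.99 and 7.47 in skin cells, and 4.82 and 7.73 in splenic cells, a 12.2-fold difference between intestine and spleen (3.61 ± 0.14, limma adjusted p 1.43e-07). Cxcr4, which holds cells in bone marrow, was also higher in intestinal than in splenic cells (1.03 ± 0.17, limma adjusted p 0.000716). Between skin and splenic cells 6 were lower and 1 was higher (Cxcr3), with a median of -0.35, but that count of lower genes was 1 without the first spleen array, 2 without the second and 3 without either skin array. The higher count was 0 without any of those 4 arrays and 2 without either intestinal array. Itga4, an integrin chain that pairs to bind mucosal and vascular ligands, was lower in skin cells, with signals of 148 and 160 in skin cells, against 418 and 489 in splenic cells (-1.28 ± 0.14, limma adjusted p 0.000602). Intestinal cells had 4 of the 12 higher and 6 lower than skin cells.

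Genes known to act on Cd69, transcription factors and a receptor chain, were mostly higher in intestinal cells. Of 15 tested, 13 were higher and 2 lower than in splenic cells, where 21.0% of all genes were higher and 28.3% lower, with a median of 1.97 against -0.04 for all genes. The NF-kB gene Rel had signals of 384 and 219.8 in intestinal cells, 17.7 and 21.4 in skin cells, and 10.4 and 12.2 in splenic cells, a 12.3-fold difference between intestine and spleen (3.62 ± 0.20, limma adjusted p 9.65e-07). Its relatives Nfkb1 (2.5 ± 0.14, limma adjusted p 9.71e-07), Nfkb2 (2.48 ± 0.13, limma adjusted p 6.22e-07) and Relb (1.98 ± 0.14, limma adjusted p 3.27e-06) were higher as well, and none of these 4 passed between skin and splenic cells. The AP-1 gene Junb was higher in both tissues. It read 3688 and 3153 in intestinal cells, 1707 and 1982 in skin cells, and 527 and 705 in splenic cells, which is 2.54 ± 0.17 (limma adjusted p 2.7e-06) above spleen in intestinal cells and 1.69 ± 0.17 (limma adjusted p 0.000485) in skin cells. Fosl2, another AP-1 gene, was 6.50-fold higher in intestinal than in splenic cells (2.70 ± 0.18, limma adjusted p 2.4e-06). Fosb was higher by 3.57 ± 0.44 (limma adjusted p 0.000128) on its brightest probe, with splenic arrays of 21.2 and 93.2, and its other probe gave 0.13. The lower genes were Ifnar2, a chain of the type I interferon receptor (-1.22 ± 0.16, limma adjusted p 0.000163), and Nfatc1, a factor of calcium signals (-1.01 ± 0.14, limma adjusted p 0.000246), whose other probes ran between -0.57 and 1.45. In skin cells 5 of the 15 were higher than in splenic cells, all AP-1 or Egr genes (Junb, Jund, Fos, Fosb and Egr1), and 1 was lower, with a median of 0.38. Without the first spleen array 3 were higher, and without any 1 of the spleen or skin arrays none was lower. Compared with skin cells, 9 were higher and 2 lower in intestinal cells, and 1 was lower in the fits that left out a spleen array, a skin array or the second intestinal array.

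Genes that make, break down or carry sphingosine-1-phosphate showed no common direction. Of 16 tested, 4 were higher and 5 lower in intestinal than in splenic cells, with a median of 0.07. Over all genes 21.0% were higher and 28.3% lower. Sphk2, a kinase that makes the lipid, was higher by 0.78 ± 0.14 (limma adjusted p 0.00158, and 0.0572 on the deposited scaling alone), and Sgpl1, the lyase that degrades it, by 0.47 ± 0.14 (limma adjusted p 0.0174). Cers2, a ceramide synthase upstream of it, was 2.53-fold lower, with signals of 276 and 243 in intestinal cells, 473 and 506 in skin cells, and 846 and 768 in splenic cells (-1.34 ± 0.13, limma adjusted p 3.55e-05). Sptlc1, a subunit of the first enzyme of sphingolipid synthesis, was lower too (-0.84 ± 0.13, limma adjusted p 0.000537). The higher count was 1 without either spleen array and 2 without the second intestinal array, and the lower count 3 without the first spleen array. In skin cells 2 were higher and 1 lower than in splenic cells, and none was higher without either spleen array or the first skin array, nor was any lower. Against skin cells, 1 was higher and 6 lower in intestinal cells.

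Of 21 tested genes of receptor signalling, 2 were higher, 7 lower and 12 did not pass between intestinal and splenic cells, with a median of -0.19. Over all genes 21.0% were higher and 28.3% lower there. Gna13, the G protein subunit by which S1PR2 and other receptors reach RhoA, had signals of 823 and 795 in intestinal cells, 267 and 294 in skin cells, and 273 and 304 in splenic cells. It was 3.21-fold higher in intestinal than in splenic cells (1.68 ± 0.13, limma adjusted p 8.04e-06), with no difference that passed between skin and spleen, although another probe gave 3.69 and 1.62. Pik3cg, the phosphoinositide kinase driven by G proteins, ran the other way, with signals of 163 and 209.9 in intestinal cells, 558 and 593 in skin cells, and 687 and 622 in splenic cells (-1.45 ± 0.15, limma adjusted p 4.41e-05). Coro1a, an actin regulator that T cells need to leave lymphoid organs, was lower too (-0.71 ± 0.14, limma adjusted p 0.00229), a call that was lost with median scaling (limma adjusted p 0.560). The lower count was 3 without the first spleen array and 4 without the second, and the higher count was 1 without either spleen array or the second intestinal array. Skin cells had 4 higher than splenic cells, Tiam1 (0.87 ± 0.14, limma adjusted p 0.00419), an activator of Rac, and Gng2 (0.85 ± 0.14, limma adjusted p 0.00358), a G protein subunit, among them, and none was lower by limma, 2 being lower at an unadjusted p under 0.05. That count was 1 without either spleen array and 2 without either skin array (the call of Tiam1 was lost without the first spleen array, that of Gng2 without the second), and 1 was lower without either intestinal array. In intestinal cells 1 was higher and 11 lower than in skin cells, where 16.4% of all genes were higher and 22.9% lower. The lower count was 6 without either spleen array, 7 without the first intestinal or the first skin array and 5 without the second skin array.

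**Figure D5:**
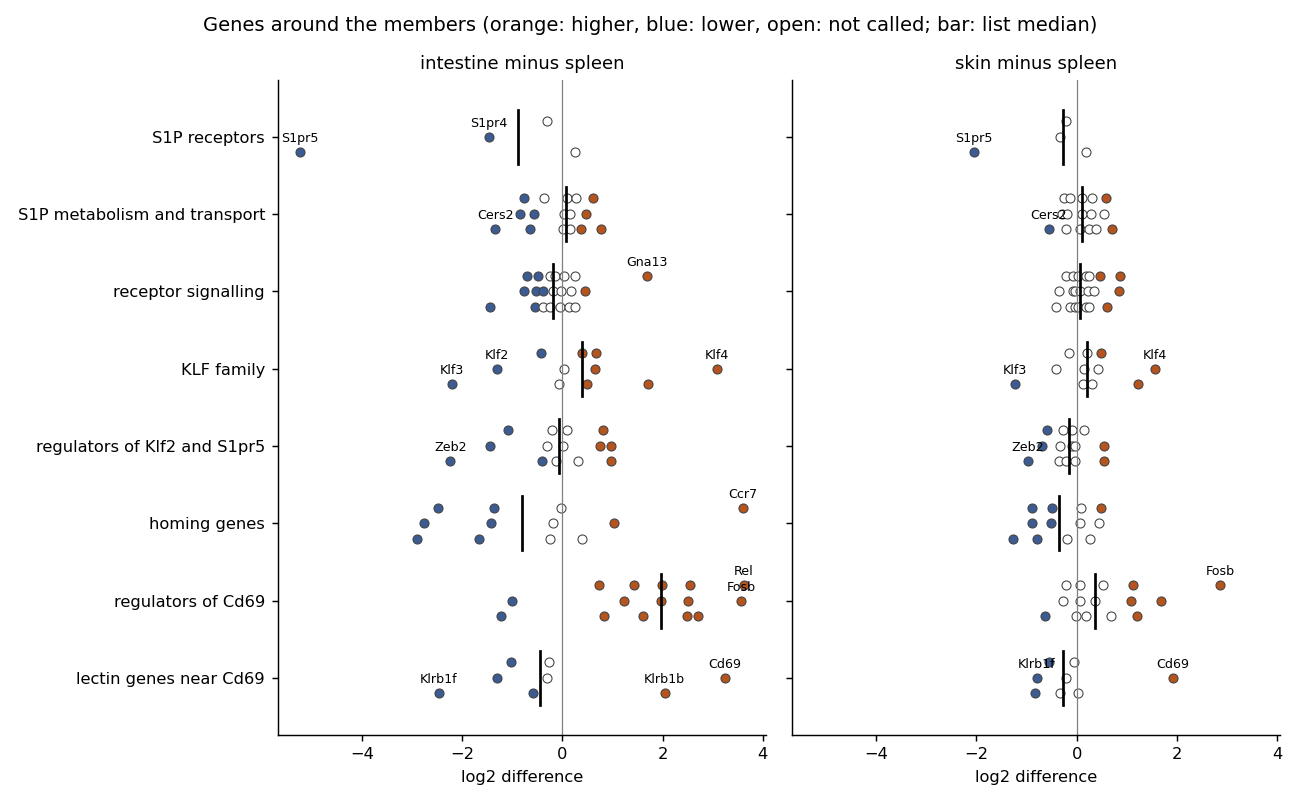
Log2 differences (horizontal axes) between intestinal and splenic cells (left) and between skin and splenic cells (right) for the tested genes of each list; filled symbols passed the test (orange higher, blue lower) and bars are list medians. The regulators of Cd69 lie to the right between intestinal and splenic cells, with 13 of 15 higher, and homing genes spread from -2.91 (Cx3cr1) to 3.61 (Ccr7).

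Cd69 lies among lectin genes of the NK gene complex, and these moved both ways. Of 8 tested, Cd69 included, 2 were higher and 4 lower in intestinal than in splenic cells, with a median of -0.45. Over all genes 21.0% were higher and 28.3% lower. Klrb1b, an inhibitory receptor, was the other higher gene (2.05 ± 0.14, limma adjusted p 3.16e-06), with signals of 1602 and 1569 in intestinal cells, 388 and 351 in skin cells, and 389 and 449 in splenic cells. Klrb1f, an activating receptor, was 5.52-fold lower, with signals of 237 and 209.8 in intestinal cells, 802 and 813 in skin cells, and 1523 and 1435 in splenic cells (-2.47 ± 0.13, limma adjusted p 7.35e-07). Clec2d, a ligand of Klrb1 receptors, was lower as well (-1.30 ± 0.16, limma adjusted p 0.000144). Skin against spleen, Cd69 was the higher gene and 3 were lower, and 1 was lower without the first spleen array. Intestine against skin, 2 were higher and 3 lower.

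Genes within 100 kb of a member in the RefSeq annotation, a distance chosen after the values were seen, gave no shared direction either. Of the 7 tested around S1pr5, Pde4a was higher in intestinal than in splenic cells (1.38 ± 0.14, limma adjusted p 3.44e-05), Cdkn2d, Slc44a2 and Ap1m2 were lower, with differences from -0.86 to -0.46, and between skin and splenic cells none passed by limma, 3 having an unadjusted p under 0.05. Around S1pr4, 2 of 7 tested were lower, Nfic (-1.54 ± 0.14, limma adjusted p 1.54e-05) and Gna11 (-0.77 ± 0.14, limma adjusted p 0.00157), and 2 higher, Tle2 (1.35 ± 0.16, limma adjusted p 0.000123) and Gna15 (0.55 ± 0.14, limma adjusted p 0.00997), where 28.3% of all genes were lower and 21.0% higher. Both tested neighbours of Cd69 were lower in intestinal cells, Clec2d as above and 2310001H17Rik (-0.90 ± 0.15, limma adjusted p 0.000758). Of the 2 near Klf2, Ap1m1 was lower (-0.48 ± 0.14, limma adjusted p 0.0177). None was tested near S1pr1.

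For each member, the genes with the most similar pattern were those with the smallest root mean square difference over the 6 arrays, after centring both genes on their own means of log2 values. For S1pr5 the nearest were Cma1 (0.58), Gprin3 (0.62), Denn2b (0.62), Pxylp1 (0.71) and Ly6c1 (0.75), on a log2 scale on which S1pr5 itself had an SD of 2.36. Between intestinal and splenic cells Gprin3 differed by -3.78 and Pxylp1 by -3.71. Their other probes, dim with mean signals of 4.79 to 7.02, ran from -0.91 to -0.07. The measure counts size as well as direction, and Cma1, a mast cell protease gene, was lower between intestinal and splenic cells by less than S1pr5 (-3.98, limma adjusted p 5.49e-07). For S1pr4 the nearest were Hmgxb4 (0.053), Cenpo (0.054), Pias3 (0.066), Plpp6 (0.068) and Zfp46 (0.068). Pias3 differed by -1.52 between intestinal and splenic cells, and its other probes gave -1.05 and 0.12. For Klf2 they were Itgal (0.071), which encodes the other chain of LFA-1, 9230112E08Rik (0.11), Camsap2 (0.14), Dhrs7 (0.14) and St3gal4 (0.14). Itgal was 2.55-fold lower in intestinal than in splenic cells (-1.35 ± 0.15, limma adjusted p 7.25e-05). For Cd69 they were Pim3 (0.21), Rgs16 (0.23), Ppp1r15a (0.23), Nr4a2 (0.23) and Csrnp1 (0.24). Rgs16, a brake on G protein signalling, was 3.33 ± 0.16 above spleen in intestinal cells (limma adjusted p 5.49e-07), and Nr4a2, a nuclear receptor gene induced on activation, 3.26 ± 0.21 (limma adjusted p 2.65e-06), with 3.72 on its other probe. The measure rests on 6 arrays of 3 tissues, and all genes share those arrays.

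Markers of other cells were summed as a check of the sort, whose gate for CD45 without CD3 leaves out T cells and cells of endothelium, epithelium and connective tissue. Some of those detected differed between tissues, while others, such as Cd68 and Cd3d, passed in no comparison. Their part in the differences above was not tested. Summed signals of 8 NK cell genes ran from 12631 to 15032 in intestinal cells, from 21272 to 22619 in skin cells and from 22297 to 22806 in splenic cells. Nkg7 was the brightest of them on every array, with 11244 and 11870 in skin cells and 9641 and 9871 in splenic cells. Between skin and splenic cells Klrk1, Klrd1 and Gzma were lower and 5 of the 8 did not pass. The median there was -0.48, and 11.4% of all genes were lower. Between intestinal and splenic cells 7 of the 8 were lower and Il2rb was higher, with a median of -1.09. Over all genes 28.3% were lower and 21.0% higher there. The 7 lower NK cell genes differed by -1.61 (Klrk1) to -0.87 (Nkg7). In the same comparison S1pr5 differed by -5.24, and S1pr4 (-1.47) and Klf2 (-1.31) lay within that range. Endothelium carries S1pr1 and Klf2: its 8 markers summed to 578 to 749 in intestinal cells, 203 to 243 in skin cells and 243 to 248 in splenic cells, nearly all from Pecam1, which lymphocytes also transcribe, and Cdh5, Tie1, Tek, Emcn, Plvap and Esam were detected on no array. Kdr, the remaining marker, was detected on all 6 arrays and passed in no comparison. It read 23.4 and 17.0 in intestinal cells, 18.3 and 21.6 in skin cells, and 19.6 and 20.4 in splenic cells. Erythroid and platelet genes, of which 4 of 6 were detected, summed to 690 to 1110 in intestinal cells, 779 to 1022 in skin cells and 11618 to 17488 in splenic cells, led by Hbb-b1 and Hba-a1. T cell genes summed to 442 to 734 in intestinal cells, 165 to 204 in skin cells and 237 to 312 in splenic cells, with Cd3e, Cd4 and Cd5 detected nowhere and Cd3g at 312 and 597 in intestinal cells, against 109 and 81.4 in splenic cells. Genes of macrophages, monocytes and dendritic cells summed to 237 to 281 in intestinal cells, 362 to 385 in skin cells and 458 to 501 in splenic cells. Most of these sums came from Itgax and Cd68, neither of which passed in any comparison. Adgre1, Lyz2 (26.5 and 54.4 in splenic cells), C1qa and C1qb were detected on the splenic arrays only. Csf1r, Cd14 and Flt3 of the 9 were detected nowhere. B cell genes summed to 25.2 to 43.1 in intestinal cells, 16.4 to 22.9 in skin cells and 16.9 to 19.4 in splenic cells, with 3 of 5 undetected. Of 5 genes each, 4 keratinocyte, 4 gut epithelial and 3 fibroblast genes were detected on no array. The fibroblast gene Dcn was detected on 3 arrays, both skin arrays among them, and on no splenic array. It read 45.7 and -2.53 in intestinal cells, 34.2 and 17.1 in skin cells, and -0.443 and -3.49 in splenic cells. Its difference of 1.76 ± 0.58 between skin and splenic cells, the 22nd highest value, narrowly missed the threshold (limma adjusted p 0.05002). Pdgfra, a fibroblast gene detected on 4 arrays, passed in no comparison.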

How the data were processed

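RNA of 6 sorted cell samples was amplified and labelled with biotin per the labels' protocols, and scanned data were handled in BeadStudio 1.5.1.3, per the submitters' processing notes. Per the file headers, the deposited signal intensity is the average over the beads of a probe. Its values show that background was subtracted (30.7% to 32.7% of probes below 0) and that each array was scaled to one mean. How both were done, and how the deposited detection p-value that goes with each signal was found, is stated in none of the sources used here. A deposited series table holds the same intensities before scaling, 0.526 to 1.65 times as large, highest on the spleen arrays, where most probes (39.2% and 39.7%) were detected and dim genes are measured best. Depth has no meaning for arrays, and their number limits the precision.

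From the deposited intensities, log2(signal + 16) was taken, quantile normalized and fitted over all 3 tissues with limma 3.58.1 in R 4.3.3 (lmFit, eBayes). Kept were 18583 probes whose detection p was below 0.01 on both arrays of 1 tissue or more, the brightest standing for its gene (3428 genes had several), and Benjamini-Hochberg adjustment ran over 13455 genes, with a threshold of 0.05. Symbols were updated through RefSeq: 20147 probes carried a current and 12966 an older symbol, 199 an ambiguous one, 11604 one not in the table and 1727 none. The fit was tested on simulated data. The members and lists were chosen with earlier results of these data known. Named are all member probes, up to 5 called genes per list and comparison by smallest p, the 5 most similar genes per member, the 2 brightest genes per marker list and the sort genes; other genes were named after their values were seen. Array names place the first replicates on one slide and the second on another. Deviations of same-numbered arrays correlated weakly, at 0.114 (intestine and skin), 0.157 (intestine and spleen) and 0.210 (skin and spleen). Since the replicate number is also the slide, a shared slide and a pairing of samples cannot be told apart. The alternatives were offsets of 4 and 64, median scaling, the deposited scaling alone, normexp, the unscaled values, other filters, only the tissues compared, the slide as a block, a fit of all probes and each array left out. The planned protein comparison was not run, and 1 gene of the lists is not reported here by name.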

Additional observations from a re-analysis of the deposited data

How the results depend on the processing

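Of 204 values of the tested members under 17 alternatives each, all on the brightest probe of a gene, 201 kept their direction and call. The exceptions are S1pr4 between skin and splenic cells, which passed on the deposited scaling alone (-0.60), and Klf2 between skin and splenic cells, whose sign turned with median scaling (0.022) and without the second spleen array (0.026); the causes were not tested. With single arrays left out, S1pr5 ranged from -5.34 to -5.13 between intestinal and splenic, -2.22 to -1.88 between skin and splenic and -3.37 to -3.04 between intestinal and skin cells. Klf2 between skin and splenic cells ranged from -0.34 to 0.026. With the slide as a replicate block no member call changed (S1pr4 between skin and splenic cells had a limma adjusted p of 0.0957), and 7110, 3999 and 5703 genes passed between intestinal and splenic, skin and splenic, and intestinal and skin cells, against 6630, 3300 and 5282 without it.

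Counts over all genes depended more on single arrays: between intestinal and splenic cells the fits that left out 1 array called 4072 to 6693 genes, with 4072 without the first and 4093 without the second spleen array. Between skin and splenic cells 2128 passed with an offset of 4, 1826 with no filter, 549 without the first spleen array, 495 without the second, 982 without the first skin array and 2041 without the second, and up to 4745 without an intestinal array; the causes were not tested. Of 768 counts over lists, 104 moved by more than 1.5 times. Among named genes 114 values lost and 28 gained a call. Signs of small differences turned between skin and splenic cells: Klrb1c was 0.14 with median scaling and ran from -0.14 to 0.021 with 1 array left out, Rag2 0.20 and from -0.39 to 0.21, and St3gal4 -0.019 (-0.25 on the deposited scaling) and from -0.065 to 0.094. S1pr3 ran from -0.00030 to 0.39 and 9230112E08Rik from -0.15 to 0.0043. Between intestinal and skin cells Ptprc was -0.016 on the deposited scaling and ran from -0.0026 to 0.30 with 1 array left out, and S1pr3 -0.074 and from -0.18 to 0.31. Signal over background limits dim genes: S1pr5 in intestinal cells lies near the lowest signal called detected, and S1pr1 gives no level.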
